A study of Caenorhabditis briggsae with 13 samples.

Results

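Embryos at the 28-cell stage were compared with embryos at the 4-cell stage of Caenorhabditis briggsae, a nematode closely related to C. elegans. The comparison used 5 of the 13 arrays of a developmental series, 3 at 28 cells (A, B and C) and 2 at 4 cells (A and B), chosen by the stage in the sample title. All embryos were of strain AF16, with no mutant allele or treatment named in the labels. The later stage was reached 55 min after the earlier one. Each array carried total RNA pooled from 50 embryos, amplified by in vitro transcription and labelled with Cy3. The labels describe replicate arrays as biological replicates, and 4 cells had fewer of them because an amplification went poorly. RNA of whole embryos was measured, so lineages within an embryo were not resolved.

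Before the embryo transcribes its own genome, it relies on messenger RNA and protein that the mother loaded into the oocyte. In nematodes, as in other animals, part of this maternal RNA is degraded during cleavage while transcription from the zygotic genome begins, a handover called the maternal-to-zygotic transition. The comparison covers this window. A gene can be lower at the later stage when its maternal RNA is lost, and higher when the zygote transcribes it. A level on these arrays is the share of a fixed amount of amplified RNA, so that fewer transcripts per embryo and a smaller share of the RNA cannot be told apart, and neither can fewer cells of a type and less RNA per cell.

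The files name genes by WormBase numbers, which they do not pair with symbols, and 0 of 19528 identifiers on the array occurred in the RefSeq gene table used here. Lists of maternal, zygotic and housekeeping genes by symbol could therefore not be applied, nor could the embryos be checked against marker genes. Genes are described below by how they behaved, and 2 that were higher and 2 that were lower are named by number. The stage tag of 28-cell B read 4-cell, against its title. It was among 4 arrays of the series with such a conflict, the others being 55-cell A, 95-cell A and 190-cell B. The title was used for each. Across 24781 probes, 28-cell B correlated with 28-cell A and C at r = 0.965 for both, and with the 4-cell arrays at r = 0.756 and r = 0.762. The scanner file under 28-cell C duplicated that of 190-cell C, so the level of 28-cell C came from the series table, and it had no detection flags.

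The 4-cell arrays were the closer pair and detected fewer probes. The median gene had an SD of 0.187 between the 4-cell arrays and of 0.389 between the 28-cell arrays, on the log2 scale, and of 0.242 between 28-cell A and B alone. A spot counted as detected when the scanner software marked it well above background. 4-cell A detected 40.6% of probes and 4-cell B 39.8%. The share was higher at the later stage, with 53.99% on 28-cell A and 51.6% on 28-cell B. The lowest detected signal was 17.5 and 26.2 intensity units at 4 cells and 13.8 and 16.9 at 28 cells. The number of arrays limits the precision throughout.

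Many of the measured genes stood at another level at 28 cells than at 4 cells, and their number depended on the scaling. Of 13443 genes tested, 7500 (55.79%) changed, 3377 (25.12%) upwards and 4123 (30.67%) downwards. With scaling on control spots, which leaves out 28-cell C, the number of changed genes was 3320. The test was limma on all 13 arrays with Benjamini-Hochberg adjustment over all genes, called at an adjusted p under 0.05. Levels were log2 intensity over the array's 75th percentile of all gene probes. The groups of arrays did not overlap for 69.72% of all tested genes, and for 99.6% of the genes called higher and 99.9% of those called lower. The calls were made on these same values, so separation of called genes is largely built in. Of the genes not called, 31.9% had no overlap either. The middle 50% of genes changed by between -1.36 and 1.08 on the log2 scale, and the outer 5% on each side by less than -3.32 or more than 4.34.

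Whether more genes rose or fell depended on how the arrays were scaled against each other. The median gene changed by -0.18 with the scaling above, by 1.02 when the 75th percentile was taken over probes detected on all arrays, and by -0.24 with quantile normalization. Among called genes 45.0% rose in the main scaling, 76.7% with the detected probes, 46.2% with quantile normalization, 32.5% after centring arrays on the median gene and 79.0% with scaling on control spots. The control spots were those for the E1A spike-in RNA, whose use the labels do not state. Their median stood 1.37 and 1.81 above the 75th percentile on the 4-cell arrays and 0.30 and 1.22 above it on 28-cell A and B, in log2 units, so that the 28-cell arrays differed from each other by more than the nearer of them differed from the 4-cell arrays. When each gene was set against the median change instead of no change, the split was near even: 3636 genes (27.05%) were called above it and 3701 (27.53%) under it. Scaling on detected probes gave 3661 and 3797, nearly the same by construction, since the median takes out a shift common to all genes. Quantile normalization gave 4100 and 3491. Use of the median tends to make such a split even.

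A core of genes kept its direction under every one of these 5 scalings. 2463 genes (18.32%) were called higher in all of them, which is 72.9% of the genes called higher in the main scaling. 672 genes (4.999%) were called lower in all of them, or 16.3% of the genes called lower. Apart from quantile normalization, the scalings differ mainly by an amount common to all genes of an array. Their median changes ran from -0.69 with centring to 1.02 with detected probes. A gene is thus kept mostly when its change exceeds these shifts. The unequal shares kept depend on which shifts were tried and do not show that rises are firmer than falls. Over the 4 scalings that included 28-cell C, 2659 genes were higher and 2117 lower. The scaling on control spots, which leaves out 28-cell C, accounts for the rest of the loss. 697 genes were called in opposite directions by some pair of the 5 scalings. The genes lower in all 5 had large falls, with a median log2 change of -3.76 in the main scaling, and those higher in all 5 a median of 3.21.

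**Figure D1:**
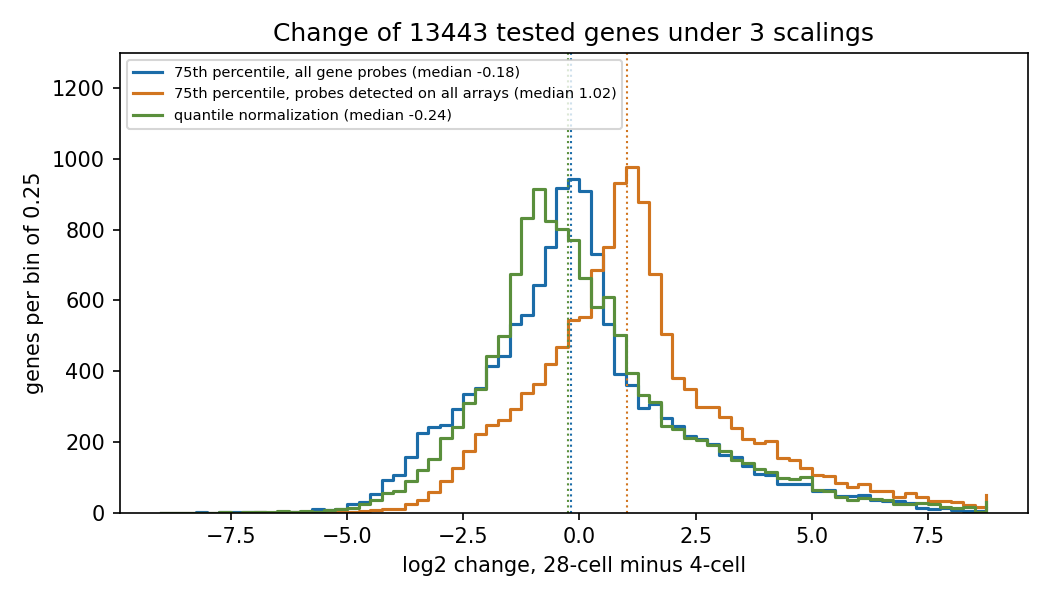
Number of genes (vertical axis, bins of 0.25) against the log2 change from the 4-cell to the 28-cell stage (horizontal axis), for 13443 genes under 3 scalings, with the medians as dotted lines and values beyond 9 placed in the end bins. Scaling on detected probes moved the whole distribution to the right, from a median of -0.18 to 1.02, and each curve has a long right tail.

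The signal of the called genes was also followed within each array, as a share of the array's total signal. Such a share amounts to a further scaling, on summed intensity, and the genes were called in the main scaling. Genes called lower held 67.1% and 66.0% of the summed gene-probe intensity on 4-cell A and B. They held 26.7%, 26.7% and 25.7% on 28-cell A, B and C. Genes called higher held 3.06% and 3.20% of the signal at 4 cells, and 25.9%, 25.8% and 28.5% at 28 cells. The arrays of a stage lay close together in both quantities, and the stages did not overlap. The genes were called on these same arrays, so the shares describe how much of the signal they carry and test nothing. Genes that were not called carried 29.7% and 30.6% at 4 cells and 45.6% to 47.4% at 28 cells. In the main scaling their median log2 change was -0.08.

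**Figure D2:**
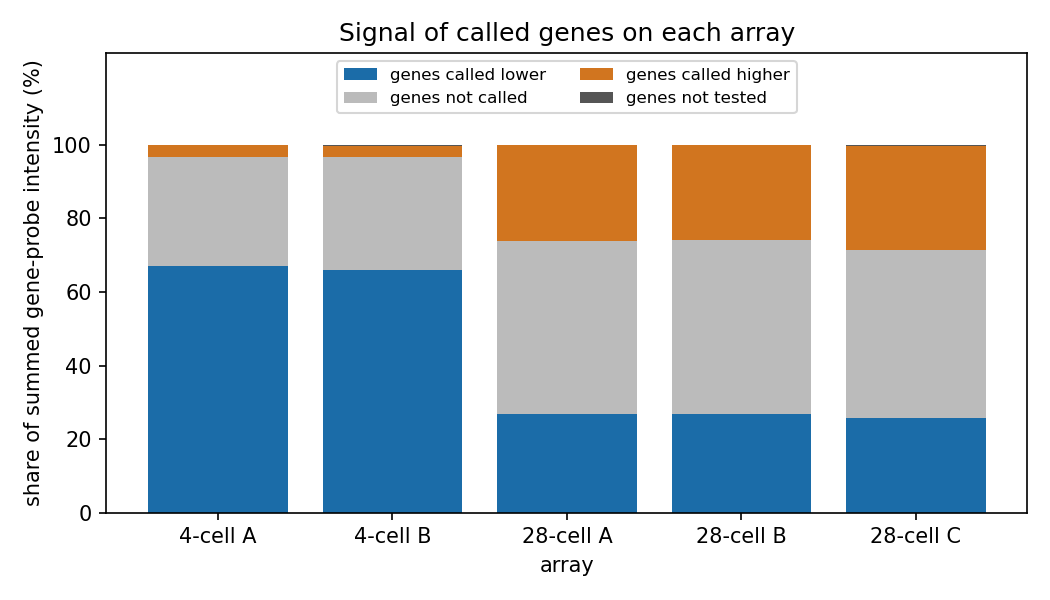
Share of the summed intensity of all gene probes (vertical axis, percent) on each of the 5 arrays, stacked by whether the gene was called lower, not called or called higher at 28 cells; genes that were not tested hold at most 0.202%. The called-lower part shrinks from about 67.1% to about 26.7% between the stages.

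Among genes detected at both stages, falls of at least 4-fold were more numerous than rises, while rises of at least 16-fold outnumbered falls. These were the 8948 genes with a probe detected on both 4-cell arrays and a probe, the same or another, detected on 28-cell A and B. Other kept probes of such a gene could be at background at either stage. No bound was applied to these genes, so some sizes may rest in part on background signal. Measured from the median change over the tested genes, 919 of them rose and 1763 fell by at least 4-fold, while 279 rose and 142 fell by at least 16-fold (all called by limma relative to that median). With scaling on detected probes the numbers were 918, 1761, 279 and 142, and with control spots 687, 1312, 260 and 190. Quantile normalization gave 959 rises and 1083 falls of at least 4-fold, and 278 rises and 47 falls of at least 16-fold. Both orders held under these settings and with centring on the median gene. Scaling on detected probes and centring add the same amount to every gene of an array. Measuring from the median change takes such an amount out, so their agreement was built in. Quantile normalization could differ, and so could the control spots, through the loss of 28-cell C and a wider spread. The difference in order was not itself tested. In the main scaling the median change of these 8948 genes was -0.55, against -0.18 for all tested genes. Measuring from the latter gives more falls and fewer rises than measuring from their own median would. How much of the order at 4-fold this makes up was not tested. Genes that rose from below background are not in these counts, and over all 13443 tested genes, with background signal taken as a level, rises outnumbered falls at both sizes: 2405 against 1935 at 4-fold and 889 against 175 at 16-fold. That order, too, held in the other 4 scalings, where the agreement of detected probes and centring was again built in.

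Among these 8948 genes, 1480 were called higher and 3657 lower against no change. The median called rise was 4.69-fold, with 840 genes at 4-fold or more, 256 at 16-fold or more and 63 at 64-fold or more. The median called fall was 4.38-fold, with 1990 genes at 4-fold or more, 200 at 16-fold or more and 8 at 64-fold or more. These sizes hold for the main scaling: on the log2 scale its medians were 2.23 and -2.13, whereas the same genes had medians of 3.43 and -0.93 with scaling on detected probes, far from equal in size. The 28-cell arrays were alike in these falls: over all genes called lower, the median difference from the 4-cell mean was -2.04 on 28-cell A, -2.05 on B and -2.25 on C. Over all genes called higher it was 2.60, 2.55 and 2.69. 28-cell C had the largest median difference in both directions, and over all tested genes it lay lowest, at -0.44 against -0.020 on A and -0.10 on B.

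Another group of genes was at or near background in the 4-cell embryo. 1682 genes were called higher although none of their kept probes was detected on either 4-cell array, and 1583 of them had a probe detected on both 28-cell A and B. For such genes the fold is only bounded from below, since the 4-cell signal was replaced by the lowest detected signal of the array where it was dimmer than that. Over the 1583 genes the median bound was at least 2.32-fold. The bound showed a rise for 1325 of the 1583 genes, and for 1330 of the 1682. For the rest no rise above the 4-cell detection limit was measured, though they are counted as called higher. The bound was at least 4-fold for 545 genes, at least 16-fold for 198 and at least 64-fold for 27, and the largest was at least 177-fold. A gene entered the test when a probe was detected on every flagged array of some stage. 292 genes entered through the 28-cell stage alone, and 169 of them were called higher. The count of 1583 fell to 1019 with a common floor under dim spots and to 684 with normexp background correction.

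Few genes went the opposite way. 320 genes were called lower with no kept probe detected on 28-cell A or B, and only 109 of these had a probe detected on both 4-cell arrays. The bound showed a fall for 130 of the 320. For the rest no fall from above the 28-cell detection limit was measured, though they are counted as called lower. Of 104 genes that entered the test through the 4-cell stage alone, 99 were called lower, a call that this filter favours. The median bound over the 109 genes was at least 4.60-fold, and for 64 genes it was at least 4-fold. Over all genes on the array, 2225 were detected on 28-cell A and B and on neither 4-cell array, and 107 were detected on both 4-cell arrays and on neither of 28-cell A and B. Detection thresholds were lower on 28-cell A and B than on the 4-cell arrays, and the part of this in the unequal numbers was not tested. Of all 7500 called genes, 197 had no kept probe detected on a flagged array of either stage, and no fold is given for them.

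WBGene00030028 had the largest fitted rise among 3186 genes eligible to be named, with background signal taken as its 4-cell level for most spots. Its level was -4.78 on 4-cell A and -5.18 on 4-cell B, and 4.95, 5.60 and 5.33 on 28-cell A, B and C, as log2 over the 75th percentile. The stages were far apart and the 28-cell arrays lay within 1 log2 unit. The fitted log2 change was 10.27 (SE 0.523, limma adjusted p = 1.22e-08), and it was 7.31 with normexp and 11.47 with scaling on detected probes, the extremes over the alternatives. Its A probe was detected on 0 of 2 4-cell arrays and rose at least 300.1-fold, and its B probe was detected on 1 of 2. The rise was brief: the mean fell to -1.06 ± 0.98 (SD, n = 3) at 55 cells and to -6.53 ± 0.64 (n = 3) at 190 cells.

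WBGene00028918 had the next largest fitted rise, again from a 4-cell signal mostly at background, so the sizes of these 2 rises and their order are not measured at the 4-cell end. Its level was -3.98 and -5.80 on the 4-cell arrays and 4.98, 5.04 and 4.30 on the 28-cell arrays. The 4-cell arrays differed from each other by more than the 28-cell arrays did, with 1 of 2 probes detected on 1 array. The fitted log2 change was 9.67 (SE 0.614, limma adjusted p = 6.33e-08), with a range from 6.90 to 10.87 over the alternatives. Its B probe, detected on 0 of 2 4-cell arrays, rose at least 362-fold. This gene stayed high longer, at 4.04 ± 0.98 (SD, n = 3) at 55 cells, and stood at -1.93 ± 0.21 (n = 2) at 95 cells and -4.16 ± 0.67 (n = 3) at 190 cells.

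WBGene00039719 had the largest fitted fall among the 2107 eligible in that direction. Its level was 1.66 and 2.03 on the 4-cell arrays and -5.92, -6.17 and -6.71 on the 28-cell arrays. Both of its probes were detected on each 4-cell array and on neither of 28-cell A and B, so the fall is a bound of at least 89.0-fold. Taking the background signal as a level, limma gave a log2 change of -8.11 (SE 0.514, adjusted p = 6.22e-08). Normexp shrank this to -4.48 and a common floor to -5.35. It remained low, between -7.13 and -7.78 in the stage means from 55 to 190 cells.

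WBGene00031211 had the next largest fitted fall, and its fall was measured in full, with all 3 probes detected on the flagged arrays of both stages. Its level was 6.88 and 6.63 on the 4-cell arrays and -0.68, -0.72 and -0.86 on the 28-cell arrays. The fall was 182-fold (log2 change -7.51, SE 0.295, limma adjusted p = 2.91e-09). Its probes A, B and C changed by -7.42, -7.57 and -7.52, respectively, closer to each other than the SE. The change was -7.03 under normexp, -7.51 under a common floor and -6.31 after scaling on detected probes. Under normexp and the common floor it exceeded the fall of WBGene00039719.

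**Figure D3:**
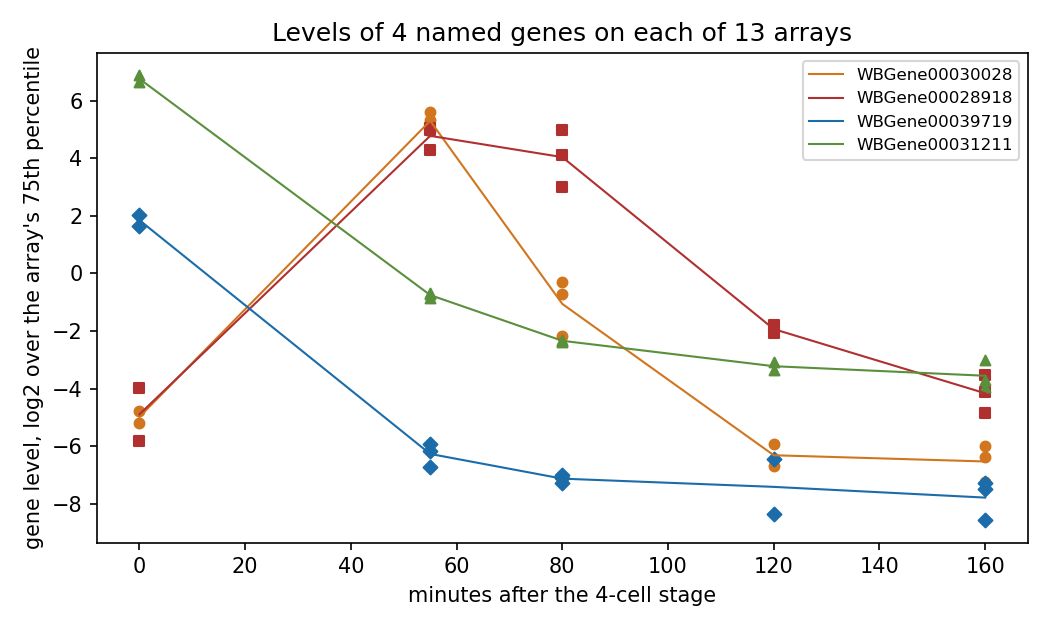
Level of the 4 named genes (vertical axis, log2 over the array's 75th percentile) on each of 13 arrays against minutes after the 4-cell stage (horizontal axis); points are arrays and lines join stage means. WBGene00030028 and WBGene00028918 rise by 55 min and fall later, and WBGene00039719 and WBGene00031211 fall by 55 min and stay low.

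The 28-cell arrays lay most of the way from the 4-cell to the 55-cell profile. On the line from the 4-cell mean to the 55-cell mean over all tested genes, 28-cell A lay at 79.9% of the distance, B at 79.5% and C at 84.6%, while 55 of the 80 min between those stages had passed. The 4-cell arrays lay at -0.60% and 0.60%. With scaling on detected probes the 28-cell positions were 81.7%, 83.7% and 89.1%. Toward the 190-cell profile they lay at 49.6%, 49.2% and 52.6%. The ends of these lines were set without the 28-cell arrays, but with 55-cell C and 190-cell C. 28-cell C was the furthest along in all 3 measures. Its deviations from the stage mean correlated with those of 55-cell C (r = 0.530), 95-cell B (r = 0.496) and 190-cell C (r = 0.330). They ran against those of 55-cell A (r = -0.506), 95-cell A (r = -0.496) and 190-cell B (r = -0.357). With 55-cell B and 190-cell A, r was -0.010 and 0.057, and with 4-cell A and B 0.301 and -0.301. Deviations cancel within a stage, so the negative values follow in part from the positive ones. Whether what 28-cell C shares with the arrays it followed bears on its position was not tested. 28-cell C also stood furthest from its replicates: the median absolute log2 difference was 0.342 between 28-cell A and B, 0.438 between B and C and 0.601 between A and C.

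Single arrays repeated the contrast. Taken alone, 28-cell A differed from the 4-cell mean by at least 2-fold in 7678 genes, B in 7372 and C in 8472, whereas 4-cell B differed from 4-cell A by that much in 749 genes. The 4-cell arrays were the closest replicates, with a median absolute log2 difference of 0.264, against 0.342 to 0.601 between 28-cell arrays. The count for 4-cell B thus understates the spread at 28 cells. Leaving out any of the 5 arrays left between 6258 and 7410 called genes, lowest without 4-cell A and highest without 28-cell A. Leaving out a 4-cell array leaves a single one, assumed to vary like the other stages.

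What became of these genes later was followed on the 55-cell and 190-cell arrays, whose levels do not enter the 28-cell minus 4-cell difference but which shared the filter on dim probes and the estimate of spread with it. Between 55 and 190 cells, 16.71% of all tested genes rose and 20.03% fell (limma, adjusted p under 0.05). Of the 3377 genes that had risen by 28 cells, 1532 (45.4%) then fell and 443 (13.1%) rose further, with a median log2 change of -0.79 against -0.13 for all tested genes. Of the 4123 genes that had fallen by 28 cells, 501 (12.2%) fell further and 787 (19.1%) rose, with a median of 0.10. The share of risers that fell later was thus 45.4% where that of all tested genes was 20.03%. Relative to the median change, where the background was 19.28% above and 17.63% below, 41.8% of the risers and 9.77% of the fallers lay below. The difference from the background was not tested, since genes of an array are not independent.

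The later fall was seen both in genes that were dim at 4 cells and in genes detected there. Of the 1583 with a probe detected on 28-cell A and B, 778 (49.1%) fell between 55 and 190 cells and 200 (12.6%) rose. Of the 1480 risers detected at both stages, 621 fell and 196 (13.2%) rose. The difference between these groups was not tested. For risers as a whole the falling share was 41.4% with quantile normalization, against a background of 18.5%, and 20.8% with control spots, against 6.81%. Within the first scan date, without the later-scanned 55-cell C and 190-cell C, it was 40.7%, or 1376 genes, where 2288 of all 13443 tested genes fell. When the 28-cell and 4-cell arrays were filtered and fitted alone and the later arrays were fitted alone, 1479 (43.4%) of 3410 risers fell, where 2450 (20.4%) of 12036 tested genes did. This later comparison and its alternatives were added with the data known.

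In stage means, the risers detected at both stages stood at a median of 2.23 above their 4-cell level at the 28-cell stage, on the log2 scale. The median was then 2.22, 1.60 and 1.56 at the next stages. At the last of these, 190 cells, the lower quartile was -0.10 and the upper 3.12, so the genes of the group had spread apart. With scaling on detected probes the median at 190 cells was 2.85 and the lower quartile 1.19, so whether the lowest of these genes were back at their 4-cell level depended on the scaling. The genes that fell and were detected at both stages stood at -2.13, -2.08, -1.96 and -1.95 in turn, and their lower quartile went from -2.94 to -3.13, while with detected probes the median went from -0.93 to -0.65. For all tested genes the median in the main scaling was -0.18, -0.28, -0.63 and -0.45 in turn, so part of the movement was shared by all genes. All of these values share the 4-cell arrays, and any scaling other than quantile normalization adds the same amount to every gene of an array.

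**Figure D4:**
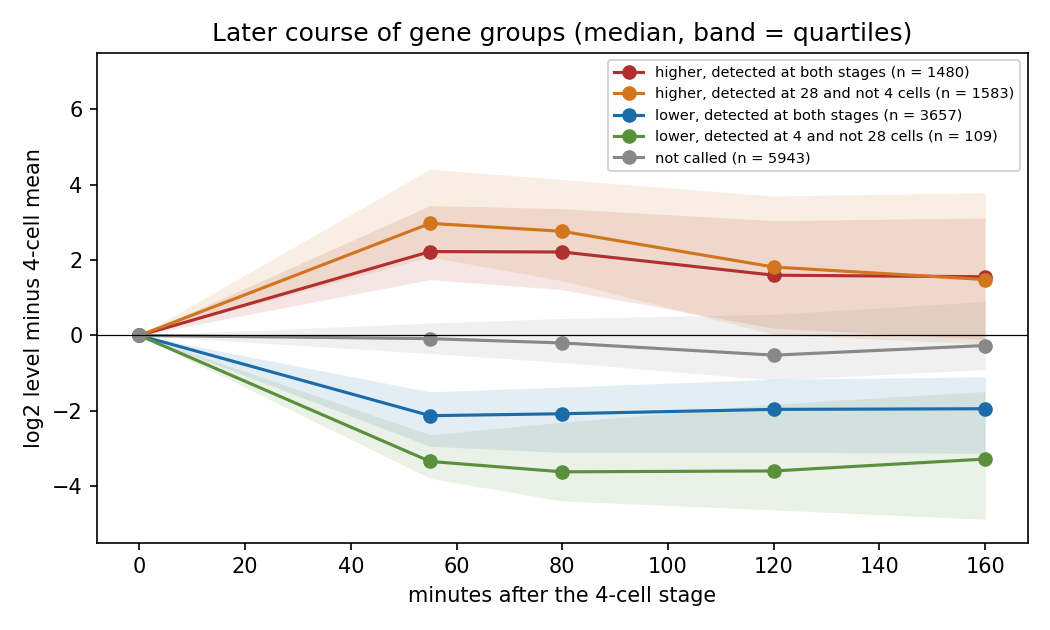
Median log2 level minus the gene's 4-cell mean (vertical axis) against minutes after the 4-cell stage (horizontal axis) for genes grouped by their call between 4 and 28 cells; bands span the quartiles over genes, in the main scaling. Both groups of risers (1480 genes detected at both stages, 1583 detected at 28 cells and on neither 4-cell array) decline after 80 min, while both groups of fallers (3657 and 109 genes) stay nearly level. Genes that were not called moved too, from a median of -0.20 at 55 cells to -0.52 at 95 and -0.27 at 190 cells. The 109 genes had no kept probe detected on 28-cell A or B, so their 28-cell level is background signal.

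Different probes for a gene mostly moved alike. Of 2363 genes called higher with at least 2 kept probes, 2282 (96.6%) had every probe moving upwards. Of 3334 genes called lower, 3308 (99.2%) had every probe moving downwards. Genes were called on the mean of these same probes, which favours agreement among called genes. Over all 8794 genes with at least 2 kept probes, called or not, 7656 had every probe moving in the same direction. Over 8794 genes with at least 2 kept probes, the median SD of the log2 change between probes of a gene was 0.272. All probes were called higher on their own in 1796 genes and called lower in 2815. Probes of a gene were hybridised with the same RNA, so this agreement covers the probe and not the sample.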

How the data were processed

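Spots were quantified with Agilent Feature Extraction 9.5.3.1, as the file headers state. What the authors deposited is the processed intensity of each spot, background-subtracted and not scaled between arrays. The series table equalled the scanner output on 12 arrays (relative tolerance 1e-06) and was used for all 13. Flags for detection, saturation and outliers were read from 12 arrays, per the file headers. 207 of 42034 gene probes with an outlier flag were left out.

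Intensity was divided by the 75th percentile of all gene probes on the array and put on the log2 scale. Of the probes, 24781 were kept because some stage detected them on every flagged array. Kept probes were averaged per gene. The comparison was fitted with limma 3.58.1 in R 4.3.3 (lmFit, eBayes) on all 13 arrays with stage as the only term, and tested on simulated data. Where no kept probe was detected at the dimmer stage, folds are bounds. At 28 cells bounds used arrays A and B.

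Named genes were the 2 largest fitted changes each way among genes called in the main and detected-probe scalings and relative to the median, with no overlap of arrays and all kept probes agreeing. The design planned lists by symbol, which could not be matched. Members, lists and tests were chosen with earlier results of these data known. 16 alternatives were run and 5 arrays left out in turn. Each of the 12 arrays with a scanner file of its own was on a slide of its own, so no slide block was made. No column of another series was used (0 columns).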

Additional observations from a re-analysis of the deposited data

How the results depend on the processing

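Results per setting are counts of genes, 28-cell against 4-cell unless stated. Scaling on detected probes gave 6991 higher and 2121 lower, of which 2819 and 724 by at least 4-fold. Control-spot scaling, without 28-cell C, gave 3320 changed, 698 lower, 1839 above and 1477 below the median change, and 660 lower by at least 4-fold. With it 702 risers fell and 217 fallers rose from 55 to 190 cells. Normexp, without 28-cell C, gave 2066 higher, 827 by at least 4-fold, and 684 rising from below background. A common floor gave 1019 rising from below background. With only probes detected on all arrays, fewer genes were tested (8477): 4961 changed, 1338 rose, 701 by at least 4-fold, 1949 lay above the median, and 0 rose from below background by construction. No filter on dim probes put 2176 below the median. All other planned counts stayed within 1.5 times, leave-outs included, and the 4 named genes kept direction and call wherever they could be fitted. The replicate letters were not stated to pair samples. Deviations of same-letter arrays correlated between -0.498 and 0.530, 5 arrays correlated best with their own letter, and a replicate block gave 7529 changed genes. A block for scan date (28-cell C left out) gave 7592 changed genes and the first scan date alone 7410.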

Other observations

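The brightest 100 probes of an array held 10.0% and 8.98% of the summed gene-probe intensity on 4-cell A and B, and 11.4%, 12.4% and 13.9% on 28-cell A, B and C. These are different probes on each array.

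Of 8794 genes with at least 2 kept probes, 64 had probes called in opposite directions between 4 and 28 cells, each probe fitted on its own with limma, and 11 of the 1453 genes with at least 3 kept probes did. No gene of this kind is named, since the files do not say which transcript each probe reads.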
